A study of Mus musculus with 47 samples.

Results

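The 39 Hox cluster genes of the mouse are the protein-coding genes named Hoxa, Hoxb, Hoxc or Hoxd with a paralog number, and every one of them was taken by that symbol from the GRCm38 annotation, 39 of the 53402 genes listed for adults and of the 55471 listed for neonates. Their RNA was measured by bulk RNA-seq in medullary thymic epithelial cells (mTECs) of C57BL/6 mice, sorted from digested thymus as CD45-EpCAM+Ly51- cells and split by MHC class II into mTEChi (high) and mTEClo (low). The adult set held 7 mTEChi and 8 mTEClo libraries of wild-type (WT) mice aged 4 to 5 weeks, and 4 mTEChi and 4 mTEClo libraries of Aire-deficient (AireKO) male mice aged 5 to 6 weeks. WT mTEChi replicates 4 and 5 and WT mTEClo replicates 1, 2, 5, 7 and 8 came from females, and the other WT libraries from males. The neonatal set, from mice aged 1 to 6 days, held mTEChi libraries of 5 control (Ctrl), 3 EEDcKO, 3 AireKO and 3 AireEEDdKO samples, and mTEClo libraries of 3 Ctrl, 4 EEDcKO and 3 AireEEDdKO samples. EEDcKO mice carried a floxed Eed gene and Foxn1-Cre, which acts in thymic epithelium as a whole and not only in the sorted fractions. AireEEDdKO mice lacked Aire as well. The labels give the neonatal controls only as Ctrl, and some neonatal libraries were pooled from male and female animals. The mTEClo Ctrl libraries came from days 1 to 3, whereas AireKO and AireEEDdKO libraries came from days 4 to 6. EEDcKO mTEClo replicates 1 to 4 came from days 2 to 3, 1, 6 and 4. In mTEChi, the Ctrl and the EEDcKO libraries each spanned days 1 to 6.

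Hox genes encode homeodomain transcription factors that lie in clusters and are switched on along the body axis in the order of their position: genes at the low-numbered (anterior) end act in the hindbrain and pharyngeal arches, and those at the high-numbered (posterior) end act in the trunk, limbs and tail. The clusters are classical targets of Polycomb repressive complex 2 (PRC2), which places H3K27me3, and EED is the PRC2 subunit that reads this mark and is required for its spread. The thymus arises from the pharyngeal pouches, where Hoxa3 is required for its formation. Aire lets mTECs express genes of many peripheral tissues. The comparisons asked how the Hox clusters were expressed in the immature and mature mTEC fractions, without EED, without Aire, and without both.

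Total counts per library were 1602125 to 3938588 (median 2998595) in adults and 1578579 to 4817418 (median 3020965) in neonates, so that a library with no read of a gene still allows up to 3 counts, or 0.736 to 1.88 CPM in adults and 0.611 to 2.05 CPM in neonates, counting error only. CPM are counts scaled to a common library size with the TMM factors of edgeR, and a gene was called where the edgeR quasi-likelihood test gave an adjusted p below 0.05 and a change of at least 2-fold. Comparisons with the same control group share its libraries, 5 in Ctrl mTEChi and 3 in Ctrl mTEClo. Overlap between libraries is given below mainly for genes picked by a call on the same values, where little overlap is likely. The share of all genes without overlap was not worked out in any comparison. The labels name samples of a group without stating separate litters, so the p-values measure the spread between these samples. A bulk library averages its cells, and fewer cells expressing a gene cannot be told apart from less of its RNA per cell. Aire fell from 816 ± 57.6 CPM in adult WT mTEChi to 28.4 ± 11.2 in AireKO, and from 613 ± 153 CPM in neonatal Ctrl mTEChi to 70.04 ± 38.4 in AireKO and 21.4 ± 11.1 in AireEEDdKO. Eed was at 28.9 ± 7.86 CPM in neonatal Ctrl mTEChi, 14.7 ± 4.59 in EEDcKO, 39.2 ± 7.49 in AireKO and 13.5 ± 2.995 in AireEEDdKO, and was called lower in EEDcKO mTEChi and in AireEEDdKO against AireKO. In mTEClo it was at 24.03 ± 1.42 CPM in Ctrl, 15.04 ± 1.11 in EEDcKO and 15.04 ± 0.255 in AireEEDdKO, and the EEDcKO change of -0.67 ± 0.22 on the log2 scale did not reach the 2-fold minimum. Gene-level counts include reads from exons outside a floxed part, so they check the deletion of Eed only in part. The summed TEC markers (Epcam, keratins, claudins, H2-Aa, Cd80 and Ccl21a) were at 1231 to 2804 CPM in every group, with none at 0 apart from a duplicate Ccl21a entry.

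The Hoxa cluster lies on the minus strand of chromosome 6 (GRCm38 52155590 to 52260880, 11 genes). The Hoxb cluster is on chromosome 11 (96194316 to 96368256, 10 genes), Hoxc on chromosome 15 (102921103 to 103036852, 9 genes) and Hoxd on chromosome 2 (74668310 to 74765142, 9 genes), all on the plus strand. RefSeq promoter windows of GRCm38.p6, 250 bases before to 50 bases after a start site, were at hand for 22 of the 39 genes. Most were Hoxa and Hoxd genes, with only Hoxb1, Hoxb4 and Hoxb8 of the Hoxb cluster and only Hoxc4 of the Hoxc cluster. A window held a median of 13.5 CG dinucleotides (4 to 45), against 7 (quartiles 3 and 20) over all 32841 windows, and 18 of the 22 lay above that median of all windows. The median GC content was 56.8% against 52.7%. PRC2 in mammals is known to gather at CG-rich promoters.

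The upstream sequence is shown for 5 genes on which the comparisons below turned, all without an annotated exon over it: Hoxa2, the mTEClo-biased gene of the pharyngeal arches (chr6:52164832-52165081, minus strand), Hoxa9 (chr6:52227371-52227620, minus strand), Hoxb4 (chr11:96318017-96318266, plus strand) and Hoxd8 (chr2:74704365-74704614, plus strand), which were higher without EED in mTEClo, and Hoxd4 (chr2:74721728-74721977, plus strand), which was lower without EED in mTEChi. Each line gives the 250 bases before the start site, 5′ to 3′ on the strand of the gene in GRCm38.p6, with every CG in capitals.
Hoxa2: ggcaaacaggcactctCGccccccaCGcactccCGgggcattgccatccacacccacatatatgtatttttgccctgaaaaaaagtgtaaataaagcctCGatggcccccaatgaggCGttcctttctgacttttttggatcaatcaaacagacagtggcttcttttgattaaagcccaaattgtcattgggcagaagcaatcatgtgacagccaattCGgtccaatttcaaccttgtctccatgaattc
Hoxa9: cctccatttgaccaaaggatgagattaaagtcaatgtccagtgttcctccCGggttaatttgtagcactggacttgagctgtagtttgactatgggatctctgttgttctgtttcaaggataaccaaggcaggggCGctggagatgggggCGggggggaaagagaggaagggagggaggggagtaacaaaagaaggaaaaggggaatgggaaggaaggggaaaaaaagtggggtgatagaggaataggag
Hoxb4: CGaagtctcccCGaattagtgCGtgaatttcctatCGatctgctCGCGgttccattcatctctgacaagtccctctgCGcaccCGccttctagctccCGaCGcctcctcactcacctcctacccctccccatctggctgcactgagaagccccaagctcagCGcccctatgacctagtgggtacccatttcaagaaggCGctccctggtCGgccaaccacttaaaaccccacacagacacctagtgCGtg
Hoxd8: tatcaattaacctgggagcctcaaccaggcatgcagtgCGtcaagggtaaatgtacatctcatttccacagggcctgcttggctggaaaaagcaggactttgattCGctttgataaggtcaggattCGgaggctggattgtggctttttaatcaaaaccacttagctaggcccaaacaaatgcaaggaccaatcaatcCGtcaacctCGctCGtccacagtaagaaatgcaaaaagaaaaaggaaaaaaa
Hoxd4: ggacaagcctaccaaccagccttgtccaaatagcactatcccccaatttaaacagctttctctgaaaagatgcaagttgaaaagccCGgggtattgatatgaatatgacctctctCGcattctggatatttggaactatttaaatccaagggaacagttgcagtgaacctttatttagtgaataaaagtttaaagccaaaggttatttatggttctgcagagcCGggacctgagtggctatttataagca

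These 250 bases held 6 CG in Hoxa2, 3 in Hoxa9, 14 in Hoxb4, 6 in Hoxd8 and 3 in Hoxd4, so the 3 genes shown that rose in EEDcKO mTEClo (Hoxa9, Hoxb4 and Hoxd8) spanned CG-poorer and CG-richer starts. Searched on both strands of the 300-base windows, the TATA-box letters TATAAA were found in 3 of the 22 Hox windows (Hoxb8, Hoxd4 and Hoxd13; 13.6% of all windows), the Hox-Pbx letters TGATTNAT in 1 (Hoxa2; 3.22% of all windows) and the letters CCAAT in 14 (37.4% of all windows). A match is a description of the letters and not a bound site. The starts used for Hoxa9 and Hoxd4 lie inside the longer annotated extents of those genes. The letters counted for them thus belong to an internal start. The same holds for Hoxa7 and Hoxc4 among the windows not shown.

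All 39 Hox genes had at least 1 count in each set of libraries, at low levels. A group mean of at least 1 CPM was reached by 28 genes in adults and 37 in neonates. The filter on low counts left 13 genes to be tested in adults and 25 in neonates, and the counts of calls below are given out of all 39. The shares of all genes beside them are of tested genes only. Untested Hox genes could not be called, so a count out of 39 is low against such a share. Summed over the 39 genes, the level was 51.5 ± 6.24 CPM (SD, n = 8) in adult WT mTEClo and 127 ± 15.4 CPM (n = 7) in WT mTEChi, and 62.9 ± 19.9 and 66.2 ± 5.65 CPM (n = 4 each) in the AireKO fractions. In neonates the sum was 68.6 ± 3.84 CPM in Ctrl mTEClo (n = 3), 164 ± 15.98 in EEDcKO mTEClo (n = 4) and 136 ± 6.04 in AireEEDdKO mTEClo (n = 3). It was 113 ± 15.8 CPM in Ctrl mTEChi (n = 5), 151 ± 5.29 in EEDcKO, 39.7 ± 9.398 in AireKO and 121 ± 37.9 in AireEEDdKO mTEChi (n = 3 each). The sum was thus lowest in neonatal AireKO mTEChi and highest in EEDcKO mTEClo. The highest library of adult AireKO mTEClo reached 89.1 CPM.

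**Figure D1:**
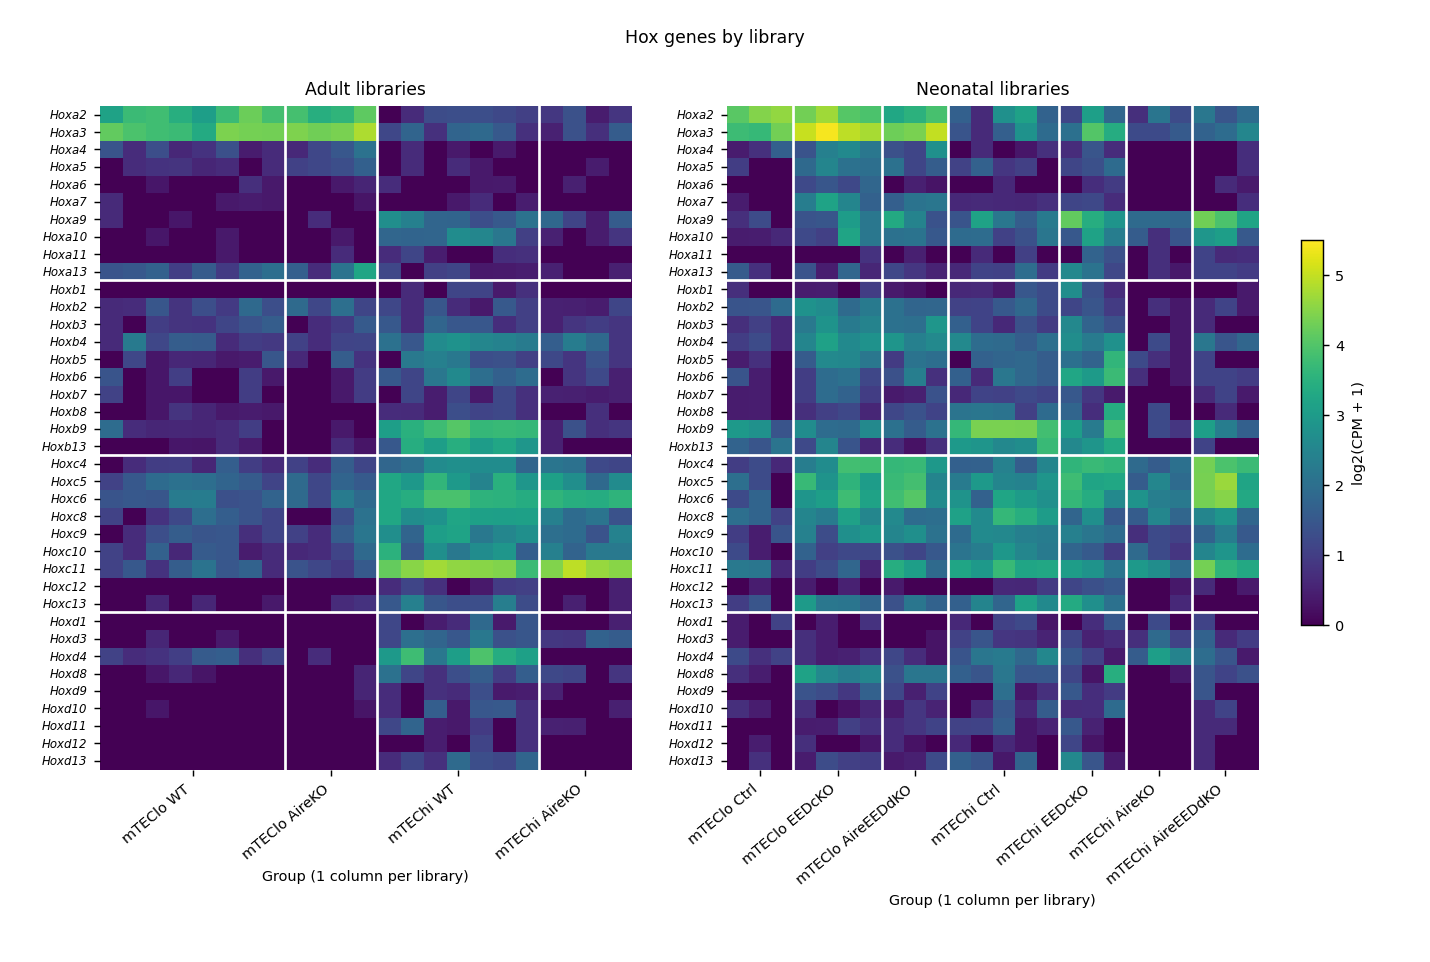
Heat map of log2(CPM + 1) of Hox genes (rows, by cluster and paralog number) in each library (columns, by group). In adults the Hoxa2 and Hoxa3 rows are brightest in mTEClo and most Hoxc rows are brighter in mTEChi than in mTEClo, and the neonatal AireKO mTEChi columns are dark in most Hoxb rows.

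Per kilobase of exon not shared with another annotated gene, the highest Hox level of adult WT mTEChi was that of Hoxc11, a posterior gene of the hindlimb axis, at 10.2 CPM per kb, with Hoxc6 at 4.61 and Hoxb9 at 4.53 CPM per kb. The place of Hoxd4 depended on the length used, at 6.37 CPM per kb over its unshared and 3.04 over all its exon bases, above Hoxc6 by the first and below Hoxc6 and Hoxb9 by the second. In adult WT mTEClo the order began by either length with the anterior genes Hoxa2 (7.89 CPM per kb of unshared and 6.704 of all exon bases) and Hoxa3 (3.57 and 2.601 CPM per kb). Exons of several Hox genes share bases with other annotated genes, which reads counted without strand cannot separate: 62.8% of the exon bases of Hoxd3 were shared, 52.9% of Hoxb3, 52.3% of Hoxd4, 35% of Hoxa11, 27.3% of Hoxb2, 27.1% of Hoxa3 and 20.4% of Hoxa7. Values of these genes are uncertain to that extent.

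**Figure D2:**
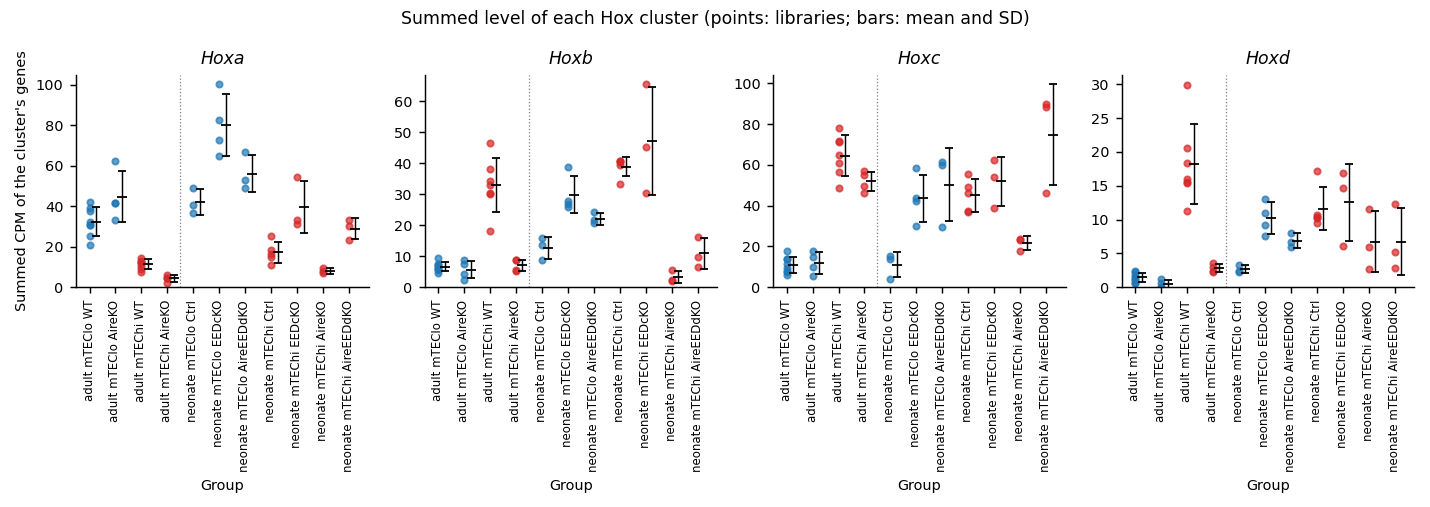
Summed CPM of the Hoxa, Hoxb, Hoxc and Hoxd clusters in every library (points) with the group mean and SD. The Hoxc sum of adult WT mTEChi (64.6 ± 10.1 CPM) stands above that of WT mTEClo (11.1 ± 3.97 CPM), and the neonatal Hoxb sum is lowest in AireKO mTEChi (3.25 ± 1.92 CPM against 38.98 ± 3.12 CPM in Ctrl).

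The comparison of WT mTEChi with WT mTEClo followed the Hox clusters from the immature, MHC class II-low fraction to the mature fraction. In adults, Hoxa2 and Hoxa3 were lower in mTEChi and 11 other genes were higher, among them 7 of the 9 Hoxc genes. Of the 39 genes, 11 were called higher and 2 lower, against backgrounds of 23.8% and 12.3% of all genes tested. Of the 39, 13 were tested, and the 26 below the low-count filter could not be called. Without the filter 32 were called, 27 higher and 5 lower, and a fit of only the groups compared called 8, 6 higher and 2 lower. The share of all genes called without the filter was not worked out. Tested or not, 31 of the 39 had the higher mean in mTEChi, where 62.86% of all genes did. The median log2 fold change over the 39 genes, fitted without the filter, was 2.24 (2.19 with genes at 0 in a group set at their bound), against 0.454 over all genes.

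Hoxa2, which patterns the second pharyngeal arch, was at 7.48 to 18.3 (median 12.5) CPM in the 8 mTEClo libraries and 0 to 1.505 (median 1.27) CPM in the 7 mTEChi libraries, a log2 fold change of -3.31 ± 0.28 (adjusted p = 2.3e-11), given with its SE as all are. Values in parentheses after levels or gene names are log2 fold changes with SE, and where a group held 1 to 3 reads in all, the ratio of pooled CPM is given instead with its exact 95% interval, which covers counting error only. Hoxa3, required for thymus formation, was at 9.22 to 20.4 (median 15.7) CPM in mTEClo and 0.707 to 2.69 (median 1.91) CPM in mTEChi, a log2 fold change of -3.11 ± 0.26 (adjusted p = 1.5e-11). Every mTEClo library was above every mTEChi library for both genes.

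Hoxc11 was at 0.597 to 3.24 (median 1.85) CPM in mTEClo and 12.4 to 25.9 (median 21.9) CPM in mTEChi, a log2 fold change of 3.51 ± 0.23 (adjusted p = 5.9e-14). Hoxb13, a gene of the tail and prostate, was at 0 to 0.6102 (median 0.125) CPM in mTEClo and 1.88 to 9.93 (median 7.44) CPM in mTEChi, a log2 fold change of 4.93 ± 0.43 (adjusted p = 3.6e-11). Hoxb9, a posterior gene of the trunk and mammary gland, was at 0 to 2.84 (median 0.566) CPM in mTEClo and 7.499 to 15.7 (median 11.7) CPM in mTEChi, a log2 fold change of 4.01 ± 0.31 (adjusted p = 2.7e-12). For these 3 posterior genes the fractions did not overlap, and mTEClo was near the limit of 1 or a few reads. Hoxd4, an anterior gene of the cervical axis, was at 0.624 to 2.14 (median 1.09) CPM in mTEClo and 3.54 to 14.7 (median 7.78) CPM in mTEChi (2.80 ± 0.32, adjusted p = 2.2e-08). The central Hoxc6, which acts in thoracic patterning, was at 1.52 to 3.99 (median 1.82) CPM in mTEClo and 8.75 to 14.2 (median 10.5) CPM in mTEChi (2.17 ± 0.21, adjusted p = 3.9e-10). Both were higher in every mTEChi library than in any mTEClo library. The remaining calls were Hoxc4 (2.22 ± 0.34), Hoxc5 (1.74 ± 0.25), Hoxc8 (2.27 ± 0.34), Hoxc9 (1.99 ± 0.33), Hoxc10 (1.97 ± 0.38) and Hoxb4 (1.57 ± 0.32), each higher in mTEChi on the log2 scale. Of these, Hoxb4 and Hoxc10 overlapped between the fractions. The 13 calls held without each library in turn, except that Hoxc4 fell below the filter on low counts without mTEChi replicate 3, 4, 5 or 6 (12 called). The fractions differed in the share of female libraries, and with male libraries only 12 were called, Hoxc4 again not tested. Mesenchyme markers summed to 80.5 to 122 CPM in mTEClo and 219 to 387 CPM in mTEChi, thymocyte markers to 28.4 to 39.9 and 84.2 to 119 CPM, and myeloid markers to 37.9 to 66.8 and 268 to 334 CPM, none of these markers at 0. Their part in the result was not tested.

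The neonatal Ctrl fractions differed in age: mTEChi replicates 1 and 2 came from day 6, and the other Ctrl libraries from days 1 to 3. In neonatal Ctrl mice, Hoxa2 and Hoxa3 were among the genes lower in mTEChi than in mTEClo, and 15 genes were higher, among them 8 of the 9 Hoxc genes. That made 15 of 39 genes called higher and 3 lower, against 13.8% and 6.92% of all genes tested. The mean was higher in mTEChi for 34 of the 39 genes (55.38% of all genes). The median log2 fold change without the filter was 1.79 (1.68 with genes at 0 set at their bound; all genes 0.216). All 16 posterior genes and all 11 central genes had the higher mean in mTEChi, against 7 of the 12 anterior genes. Hoxa2 was at 16.1, 21.2 and 23.4 CPM in mTEClo and 2.23, 0.573, 5.73, 7.86 and 2.32 CPM in mTEChi, a log2 fold change of -2.28 ± 0.43 (adjusted p = 0.00038). Hoxa3 was at 12.7, 11.8 and 18.97 CPM in mTEClo and 1.67, 0.573, 2.18, 6.02 and 2.79 CPM in mTEChi (-2.26 ± 0.41, adjusted p = 0.00026). No library of one fraction reached the range of the other for these genes.

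Hoxc10, a hindlimb gene, was at 1.34, 0.348 and 0 CPM in neonatal mTEClo and 3.35, 4.01, 6.55, 4.71 and 3.72 CPM in mTEChi, a log2 fold change of 2.75 ± 0.56 (adjusted p = 0.00074). Hoxc9 was at 1.005, 0.348 and 1.67 CPM in mTEClo and 2.79, 5.16, 4.91, 4.19 and 3.95 CPM in mTEChi (2.13 ± 0.51, adjusted p = 0.0029). Hoxb9 was at 6.7, 5.91 and 1.67 CPM in mTEClo and 11.7, 20.1, 19.9, 19.6 and 13.2 CPM in mTEChi (1.75 ± 0.43, adjusted p = 0.0035). All 3 were higher in every mTEChi library. The other calls in this direction were Hoxb8 (9.98-fold, interval 2.59 to 85.3), Hoxa10 (5.82-fold, interval 1.84 to 29.6), Hoxa9 (2.18), Hoxc13 (2.12), Hoxc6 (2.10), Hoxc8 (1.87), Hoxc11 (1.68), Hoxd4 (1.66), Hoxc5 (1.64), Hoxc4 (1.63), Hoxb13 (1.58) and Hoxb4 (1.51), on the log2 scale where no interval is given. Of the 18 genes called, only Hoxc6 overlapped between the fractions. Genes called on these same values are likely not to overlap, and the share over all genes was not worked out. With age as a term 18 genes were called, and the call of Hoxa10 ended. Cortical TEC (cTEC) markers (Psmb11, Prss16, Ly75 and Ctsl) summed to 1616 to 2478 CPM in Ctrl mTEClo and 228 to 751 CPM in Ctrl mTEChi. With the cTEC marker level as a term in the fit, chosen after seeing the data, 0 of the 18 calls were left. The marker level did not overlap between the fractions. The fit therefore separates it poorly from the fraction, and the lost calls do not show its part. Thymocyte markers summed to 25.7 to 40 and 95.8 to 118 CPM, and mesenchyme markers to 136 to 142 and 267 to 343 CPM, and their part was not tested. With 1 library left out, the calls that ended included Hoxa10 without mTEChi Ctrl replicate 1 (18 called), Hoxa9 and Hoxa10 without mTEChi Ctrl replicate 2 (16 called), Hoxa9 and Hoxd4 without mTEChi Ctrl replicate 3 (16 called), Hoxa9, Hoxa10, Hoxb13, Hoxc4, Hoxc5 and Hoxd4 without mTEChi Ctrl replicate 5 (12 called), Hoxa9, Hoxa10, Hoxb4, Hoxb8, Hoxb13, Hoxc4, Hoxc13 and Hoxd4 without mTEClo Ctrl replicate 1 (11 called), Hoxa10, Hoxb8, Hoxb13, Hoxc5 and Hoxd4 without mTEClo Ctrl replicate 2 (12 called), and Hoxa9, Hoxa10, Hoxb4, Hoxb8, Hoxc4, Hoxc5, Hoxc11, Hoxc13 and Hoxd4 without mTEClo Ctrl replicate 3 (9 called), at adjusted p from 0.05 to 0.13 in edgeR.

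**Figure D3:**
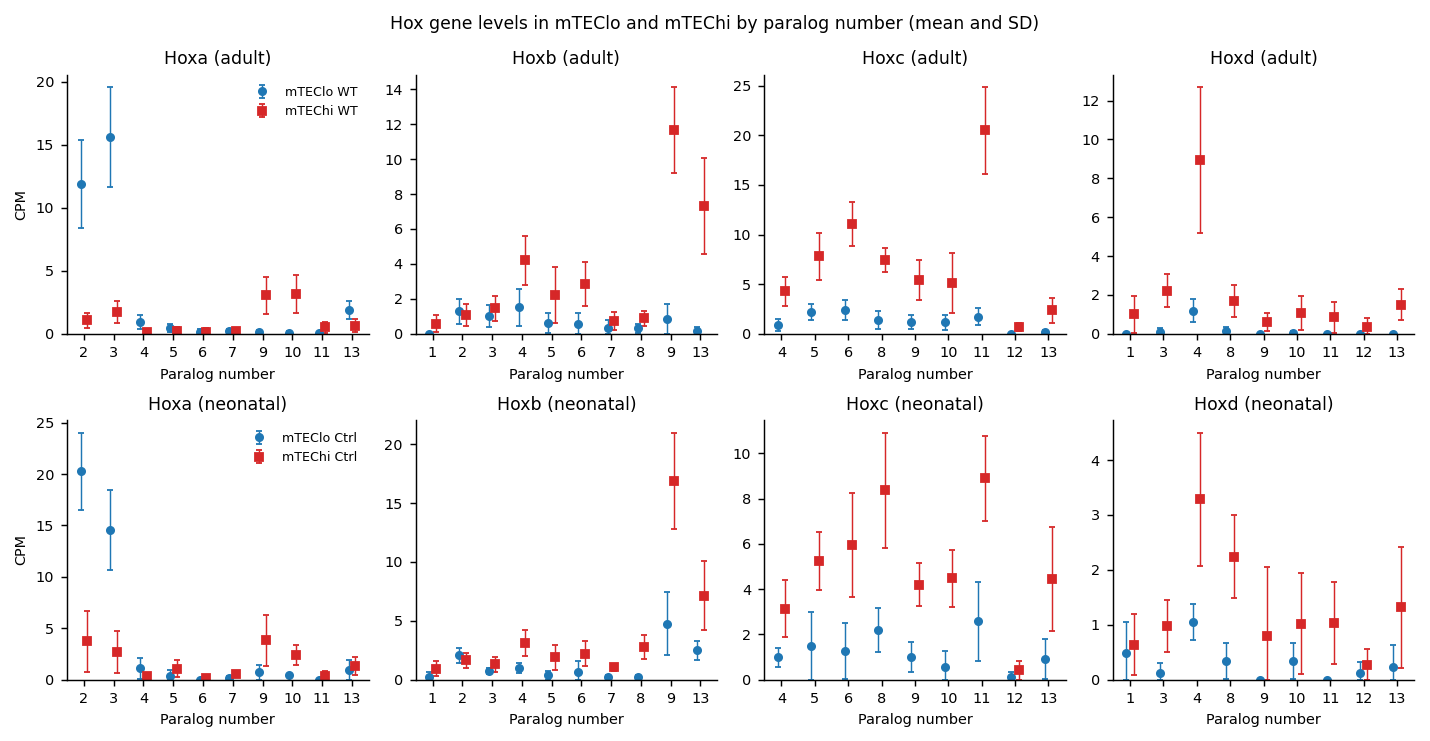
Mean CPM with SD (bars, cut at 0) of Hox genes in mTEClo (circles) and mTEChi (squares), by cluster and paralog number, in adult WT (top) and neonatal Ctrl libraries (bottom), each panel with its own CPM axis. Hoxa2 and Hoxa3 are higher in mTEClo, with Hoxa2 at 11.9 ± 3.48 and 1.05 ± 0.561 CPM in the adult fractions, and most Hoxc genes are higher in mTEChi.

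The comparison of EEDcKO with Ctrl mTEClo asked which Hox genes changed without EED in the immature fraction. Genes of all 4 clusters rose: 4 Hoxa, 4 Hoxb, 6 Hoxc and 1 Hoxd gene. None was called lower, and 6 of the 39 had the lower mean in EEDcKO. The 15 genes called higher of 39, and 0 lower, stand against 9.51% and 6.22% of all genes tested. Of the 39 genes, 33 had the higher mean in EEDcKO (42.12% of all genes), including all 11 central genes, 13 of the 16 posterior and 9 of the 12 anterior genes. The median log2 fold change without the filter was 1.71 (1.38 with genes at 0 set at their bound), against 0 over all genes.

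Hoxa7, a central gene of the thoracic axis, was at 0.335, 0 and 0 CPM in the 3 Ctrl libraries and 4.01, 8.196, 4.65 and 2.25 CPM in the 4 EEDcKO libraries, a ratio of 34.8-fold, interval 6.03 to 1394 (adjusted p = 0.0001). Hoxd8, a central gene of the lumbar axis, was at 0.67, 0.348 and 0 CPM in Ctrl and 8.02, 4.99, 4.02 and 4.76 CPM in EEDcKO (13.3-fold, interval 4.397 to 66.2, adjusted p = 0.0038). Hoxc4, a cervical gene, was at 1.005, 1.39 and 0.558 CPM in Ctrl and 4.01, 5.34, 13.3 and 13.02 CPM in EEDcKO (3.09 ± 0.51, adjusted p = 9e-05). For each of these genes every EEDcKO library was above every Ctrl library, as is likely for genes called on the same values. Hoxb4, known for its part in haematopoietic stem cells, was at 1.005, 1.39 and 0.558 CPM in Ctrl and 4.67, 7.84, 5.08 and 6.01 CPM in EEDcKO (2.46 ± 0.45, adjusted p = 0.00027). Its neighbour Hoxb3 was at 0.67, 1.04 and 0.558 CPM in Ctrl and 3.67, 6.06, 3.81 and 4.51 CPM in EEDcKO (2.46 ± 0.57, adjusted p = 0.0022), and Hoxb5 at 0.335, 0.696 and 0 CPM in Ctrl and 2.004, 4.99, 4.86 and 3.504 CPM in EEDcKO (10.01-fold, interval 3.26 to 49.97, adjusted p = 0.0094). These 3 neighbours were each higher in every EEDcKO library than in any Ctrl library.

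In the Hoxc cluster, Hoxc5 was at 3.02, 1.39 and 0 CPM in Ctrl and 12.02, 6.06, 11 and 7.26 CPM in EEDcKO mTEClo (2.44 ± 0.55, adjusted p = 0.0018), and Hoxc6 was at 1.34, 2.44 and 0 CPM in Ctrl and 6.34, 7.48, 12.9 and 8.01 CPM in EEDcKO (2.61 ± 0.58, adjusted p = 0.0016). Hoxc13, the posterior gene of hair and nail, was at 1.005, 1.74 and 0 CPM in Ctrl and 7.01, 3.56, 3.38 and 2.503 CPM in EEDcKO (1.94 ± 0.66, adjusted p = 0.031), without overlap. Hoxc9 was at 1.005, 0.348 and 1.67 CPM in Ctrl and 4.34, 1.43, 5.71 and 6.51 CPM in EEDcKO (2.26 ± 0.52, adjusted p = 0.002), with 1 EEDcKO library within the Ctrl range. Hoxa9, a regulator of haematopoietic progenitors, was at 0.67, 1.39 and 0 CPM in Ctrl and 1.67, 1.78, 7.19 and 3.504 CPM in EEDcKO (2.22 ± 0.81, adjusted p = 0.04), and Hoxa10, known from the female reproductive tract, at 0.335, 0.348 and 0.558 CPM in Ctrl and 1.34, 1.07, 8.25 and 3.504 CPM in EEDcKO (10.5-fold, interval 3.44 to 52.5, adjusted p = 0.0088). Hoxa3 rose from 12.7, 11.8 and 18.97 CPM to 31.7, 42.05, 30.03 and 26.5 CPM (1.18 ± 0.37, adjusted p = 0.017). Hoxb2, a hindbrain gene, at 1.12 (adjusted p = 0.044), and Hoxc8 at 1.21 (adjusted p = 0.046), were the calls nearest the threshold, and Hoxb2 overlapped between the groups. Both calls ended in DESeq2 and with the RLE size factors. Hoxa2, at 16.1, 21.2 and 23.4 CPM in Ctrl and 19.04, 25.3, 15.4 and 14.3 CPM in EEDcKO, did not pass (-0.13 ± 0.41, adjusted p = 0.85).

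Other cell markers moved with this comparison. The 4 cTEC markers summed to 1616 to 2478 CPM in Ctrl mTEClo and 344 to 752 CPM in EEDcKO mTEClo, none at 0 and all 4 lower in EEDcKO. The 8 mesenchyme markers summed to 136 to 142 and 575 to 849 CPM, none at 0, with 6 called higher in EEDcKO. With the cTEC marker level as a term in the fit, chosen after seeing the data, 6 of the 15 calls were left, those of Hoxa3, Hoxa7, Hoxb2, Hoxb4, Hoxc13 and Hoxd8. The marker level did not overlap between Ctrl and EEDcKO mTEClo. The fit therefore separates it poorly from genotype, and the lost calls do not show its part. Marker sums are RNA levels, and numbers of such cells were not measured. The part of mesenchymal cells in the result was not tested. EEDcKO mTEClo replicates 3 and 4 came from days 6 and 4, later than any Ctrl mTEClo library (days 1 to 3). With age as a term 13 genes were called, and the calls of Hoxa9 and Hoxc8 ended. Leaving out 1 library at a time gave 9 to 14 calls, with 14 without mTEClo EEDcKO replicate 2. Hoxb2 fell below the low-count filter, and so was not tested, without mTEClo EEDcKO replicate 1, 2 or 4. Calls ended for Hoxa3, Hoxa9, Hoxa10, Hoxb2, Hoxb5, Hoxc8 and Hoxc13 without mTEClo Ctrl replicate 1 (9 called), Hoxa3, Hoxa9, Hoxb2 and Hoxc8 without mTEClo Ctrl replicate 2 (11 called), Hoxa9, Hoxb2, Hoxc8 and Hoxc13 without mTEClo Ctrl replicate 3 (13 called), Hoxc13 without mTEClo EEDcKO replicate 1 (14 called), Hoxa9 and Hoxc8 without mTEClo EEDcKO replicate 3 (13 called), and Hoxa9 and Hoxc8 without mTEClo EEDcKO replicate 4 (12 called), at edgeR adjusted p from 0.053 to 0.2.

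AireEEDdKO mTEClo, compared with the same Ctrl mTEClo libraries, showed 11 of 39 genes called higher and 1, Hoxb13, called lower, against 12.4% and 8.2% of all genes tested. The mean was higher for 30 of the 39 (39.88% of all genes), and the median log2 fold change without the filter was 1.50 (1.26 with genes at 0 set at their bound; all genes 0). Hoxc4 was at 11.6, 12.01 and 6.66 CPM in the 3 AireEEDdKO libraries (3.23 ± 0.52, adjusted p = 4.9e-05), and Hoxa7 at 2.19, 3.26 and 3.44 CPM (23.3-fold, interval 3.94 to 945, adjusted p = 0.00055). Hoxc6 was at 13.1, 15.5 and 5.28 CPM (2.97 ± 0.59, adjusted p = 0.00043). All were above their Ctrl libraries given above. The other genes called higher were Hoxd8 (7.57-fold, interval 2.398 to 38.4), Hoxa10 (6.96-fold, interval 2.19 to 35.4), Hoxa9 (2.602), Hoxc5 (2.58), Hoxb5 (6.55-fold, interval 2.05 to 33.4), Hoxb3 (2.38), Hoxb4 (2.27) and Hoxc9 (2.24), on the log2 scale where no interval is given. Hoxb13 was at 2.35, 1.74 and 3.35 CPM in Ctrl, 1.34, 4.63, 1.69 and 0.501 CPM in EEDcKO and 0.626, 0.204 and 0.689 CPM in AireEEDdKO mTEClo, where it was called lower (-2.21 ± 0.79, adjusted p = 0.032). Neither this gene nor the 11 higher genes overlapped with Ctrl. They were picked by a call on the same values, so little overlap was likely, and the share over all genes was not worked out. The ages also differed, days 1 to 3 in Ctrl and 4 to 6 in AireEEDdKO. Markers of cTECs summed to 353 to 378 CPM in AireEEDdKO and mesenchyme markers to 561 to 1137 CPM, 7 of 8 called higher. With the cTEC marker level as a term, 2 of the 12 calls were left. Ctrl mTEClo stood apart in this level here too, so the fit separates it poorly from genotype. A fit of only the groups compared called 4. Calls ended for Hoxa9, Hoxa10 and Hoxb13 without mTEClo AireEEDdKO replicate 1 (9 called), Hoxa10, Hoxb5, Hoxb13 and Hoxd8 without mTEClo AireEEDdKO replicate 2 (8 called), Hoxb5 and Hoxd8 without mTEClo AireEEDdKO replicate 3 (11 called), Hoxa9, Hoxa10, Hoxb5, Hoxb13 and Hoxd8 without mTEClo Ctrl replicate 1 (10 called), Hoxa10, Hoxb5 and Hoxd8 without mTEClo Ctrl replicate 2 (9 called), and Hoxa9, Hoxa10, Hoxb5, Hoxb13 and Hoxd8 without mTEClo Ctrl replicate 3 (7 called), at edgeR adjusted p from 0.051 to 0.12.

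In mTEChi, the mature fraction, Hoxc4, Hoxb6, Hoxa3 and Hoxa9 were higher in EEDcKO, and Hoxc8, Hoxc10 and Hoxd4 were lower. The 4 genes called higher and 3 lower of 39 compare with 8.48% and 5.4% of all genes tested. In all, 28 of the 39 had the higher mean in EEDcKO (39.75% of all genes), all 11 Hoxa genes among them, and the median log2 fold change without the filter was 0.726 (all genes -0.150). Hoxc4 was at 2.23, 2.29, 4.37, 2.095 and 4.64 CPM in the 5 Ctrl libraries and 11.1, 12.2 and 11.2 CPM in the 3 EEDcKO libraries, a log2 fold change of 1.80 ± 0.36 (adjusted p = 0.00069). Hoxb6 was at 2.23, 0.573, 3.55, 2.62 and 2.09 CPM in Ctrl and 8.6, 6.94 and 12.5 CPM in EEDcKO (1.97 ± 0.48, adjusted p = 0.0033). Neither gene overlapped between the groups, which is likely after a call on the same values. Hoxa3 was at 1.67, 0.573, 2.18, 6.02 and 2.79 CPM in Ctrl and 3.07, 15.4 and 9.67 CPM in EEDcKO (1.77 ± 0.41, adjusted p = 0.0023). Hoxa9 was at 1.67, 8.02, 3.55, 2.095 and 3.72 CPM in Ctrl and 17.2, 9.76 and 6.24 CPM in EEDcKO (1.53 ± 0.52, adjusted p = 0.028). For both, 1 of the 3 EEDcKO libraries lay within the Ctrl range.

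Against this direction, Hoxc10 was at 3.35, 4.01, 6.55, 4.71 and 3.72 CPM in Ctrl and 2.46, 1.95 and 0.936 CPM in EEDcKO mTEChi (-1.39 ± 0.46, adjusted p = 0.023), without overlap. Hoxc8, which specifies brachial motor neurons, was at 7.81, 5.16, 11.7, 9.95 and 7.2 CPM in Ctrl and 2.46, 5.64 and 1.87 CPM in EEDcKO (-1.25 ± 0.39, adjusted p = 0.018). Hoxd4 was at 1.67, 3.44, 3.82, 2.62 and 4.88 CPM in Ctrl and 1.84, 1.08 and 0.312 CPM in EEDcKO (-1.76 ± 0.58, adjusted p = 0.023). Both of these overlapped with Ctrl. Within the Hoxc cluster, Hoxc4 rose while Hoxc8 and Hoxc10 fell, and Hoxc5 (0.89 ± 0.42) and Hoxc6 (0.46 ± 0.43) did not pass on the log2 scale. Mesenchyme markers summed to 267 to 343 CPM in Ctrl and 509 to 778 CPM in EEDcKO mTEChi, 3 of 8 called higher and none at 0, and cTEC markers to 228 to 751 and 214 to 306 CPM. Their part in the result was not tested. With single libraries left out, 5 to 7 genes were called. Calls ended for Hoxa9 without mTEChi Ctrl replicate 1 (7 called), Hoxa9 and Hoxc10 without mTEChi Ctrl replicate 3 (5 called), Hoxa9 without mTEChi Ctrl replicate 4 (6 called), Hoxd4 without mTEChi Ctrl replicate 5 (7 called), Hoxa9 and Hoxc8 without mTEChi EEDcKO replicate 1 (6 called), Hoxa3, Hoxa9, Hoxc10 and Hoxd4 without mTEChi EEDcKO replicate 2 (5 called), and Hoxc8, Hoxc10 and Hoxd4 without mTEChi EEDcKO replicate 3 (6 called), at edgeR adjusted p from 0.054 to 0.13.

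The same loss of EED without Aire was read from AireEEDdKO against AireKO mTEChi, whose libraries were matched by number in age and, in 3 of 3 pairs, by sex. Hoxc4, Hoxc5, Hoxb9, Hoxb4, Hoxa9 and Hoxc6 rose, 6 of 39 genes called higher and 0 lower, against 6.69% and 2.78% of all genes tested. Of the 39 genes, 33 had the higher mean in AireEEDdKO (41.26% of all genes), and the median log2 fold change without the filter was 2.00. With genes at 0 set at their bound it was 0.566, and the median over all genes was 0. Hoxc4 was at 2.72, 2.05 and 3.08 CPM in AireKO and 19.3, 14.3 and 12.4 CPM in AireEEDdKO (2.46 ± 0.46, adjusted p = 0.00067). Hoxc5 was at 2.04, 4.78 and 2.802 CPM in AireKO and 19.9, 24.6 and 8.27 CPM in AireEEDdKO (2.44 ± 0.54, adjusted p = 0.0028), and Hoxc6 at 6.12, 4.098 and 3.64 CPM in AireKO and 19.3, 21.8 and 8.91 CPM in AireEEDdKO (1.86 ± 0.52, adjusted p = 0.016). No library overlapped for these 3 neighbours. Hoxa9 was at 2.72, 2.73 and 2.52 CPM in AireKO and 18.7, 14.3 and 8.27 CPM in AireEEDdKO (2.34 ± 0.67, adjusted p = 0.017). Hoxb4 was at 0, 1.37 and 0.2802 CPM in AireKO and 3.503, 1.72 and 2.54 CPM in AireEEDdKO (5.58-fold, interval 1.61 to 29.7, adjusted p = 0.015), and Hoxb9 at 0, 1.37 and 0.841 CPM in AireKO and 7.59, 4.01 and 2.23 CPM in AireEEDdKO (2.44 ± 0.77, adjusted p = 0.03). Each of these was also without overlap, as is likely for genes picked by a call on the same values. The share of all genes without overlap was not worked out. With the replicate number as a block 6 genes were again called. That block was fitted over all 24 neonatal libraries and joined these pairs with libraries of other groups and ages. The pairs alone were not modelled. Mesenchyme markers summed to 250.5 to 355 CPM in AireKO, with Pdgfra at 0, and 435 to 733 CPM in AireEEDdKO. Their part was not tested. Between 2 and 8 genes were called with 1 library left out. Calls ended for Hoxa9, Hoxb4, Hoxb9 and Hoxc6 without mTEChi AireEEDdKO replicate 1 (3 called), Hoxc6 without mTEChi AireEEDdKO replicate 2 (5 called), Hoxb4 and Hoxb9 without mTEChi AireKO replicate 1 (5 called), Hoxa9 and Hoxc6 without mTEChi AireKO replicate 2 (4 called), and Hoxa9, Hoxb4, Hoxb9 and Hoxc6 without mTEChi AireKO replicate 3 (2 called), at edgeR adjusted p from 0.052 to 0.15. The 3 called without AireEEDdKO replicate 1 were Hoxc4 and Hoxc5, higher, and Hoxd4, called lower in that fit only.

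**Figure D4:**
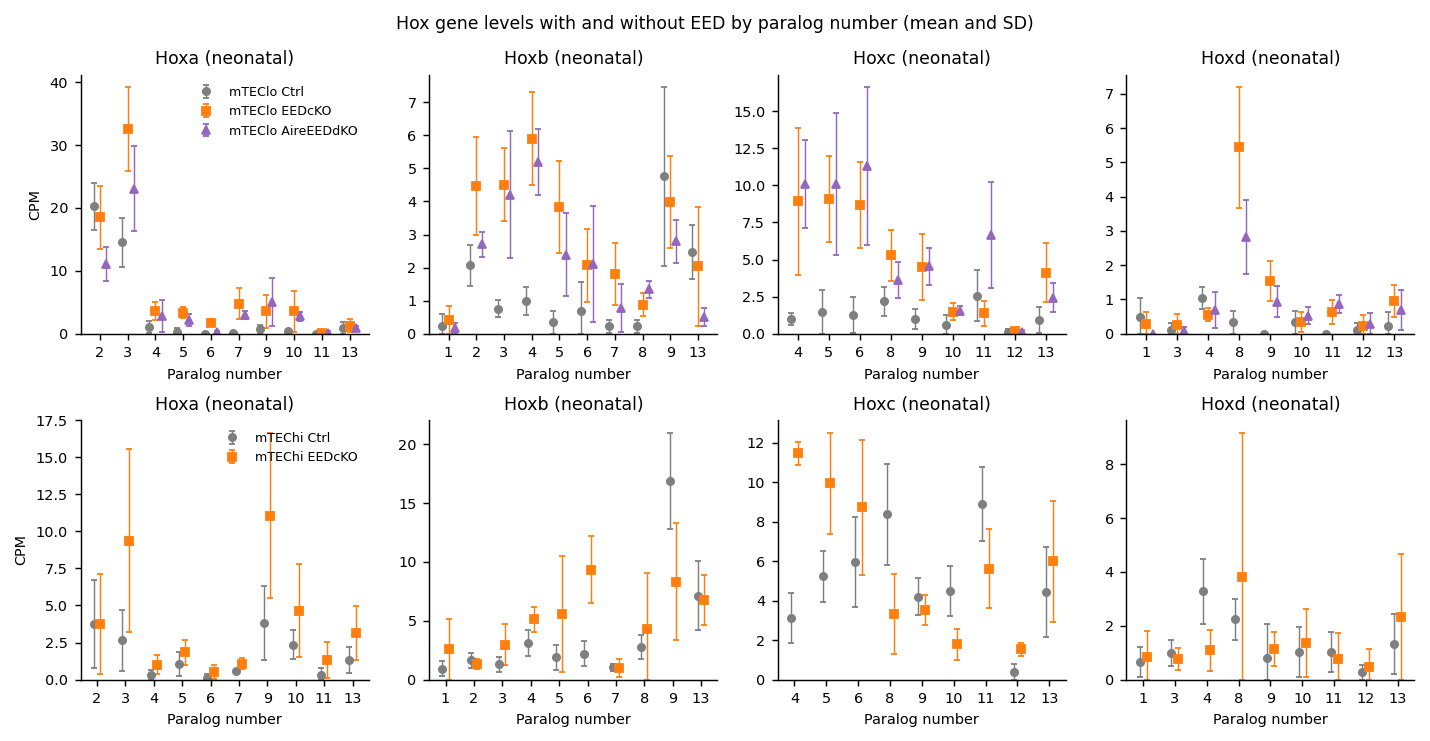
Mean CPM with SD (bars, cut at 0) of Hox genes by cluster and paralog number in neonatal mTEClo of Ctrl, EEDcKO and AireEEDdKO (top) and in mTEChi of Ctrl and EEDcKO (bottom), each panel with its own CPM axis. Hoxc4 is higher without EED in both fractions, at 0.985 ± 0.417 and 8.92 ± 4.94 CPM in Ctrl and EEDcKO mTEClo and at 3.13 ± 1.26 and 11.5 ± 0.586 CPM in mTEChi, whereas Hoxc8 and Hoxc10 are lower in EEDcKO mTEChi.

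Whether the EED effect differed between fractions or with Aire was tested by interaction terms. Between mTEChi and mTEClo, the EED effect was lower in mTEChi for Hoxc8 (-2.47 ± 0.60, adjusted p = 0.031) and Hoxc9 (-2.55 ± 0.66, adjusted p = 0.042) on the log2 scale, 2 of 39 genes called lower and 0 higher, against 0.97% and 0.614% of all genes tested. Hoxc8 went from 3.02, 2.44 and 1.12 CPM to 4.67, 3.92, 7.83 and 4.76 CPM in mTEClo, the opposite direction to mTEChi. Hoxc9 was at 2.79, 5.16, 4.91, 4.19 and 3.95 CPM in Ctrl and 4.3, 3.47 and 2.81 CPM in EEDcKO mTEChi. Between mTEChi without and with Aire, the EED effect was higher without Aire for Hoxb9 (3.48 ± 0.86, adjusted p = 0.042) and Hoxc10 (2.97 ± 0.73, adjusted p = 0.042) on the log2 scale, 2 of 39 genes called higher and 0 lower, against 0.807% and 0.446% of all genes tested. Hoxb9 was at 11.7, 20.1, 19.9, 19.6 and 13.2 CPM in Ctrl and 7.37, 3.905 and 13.7 CPM in EEDcKO mTEChi. Hoxc10 was at 2.72, 1.37 and 0.841 CPM in AireKO and 4.67, 6.302 and 2.86 CPM in AireEEDdKO mTEChi. All 4 interaction calls ended with the replicate block. That block joined libraries of different ages under the same number, so it does not show what true pairing would do. With 1 library left out, calls for the first interaction ended for Hoxc9 without mTEChi Ctrl replicates 2 or 5, mTEChi EEDcKO replicate 2 or mTEClo EEDcKO replicate 1 (1 called), Hoxc8 and Hoxc9 without mTEChi Ctrl replicates 3 or 4, mTEClo Ctrl replicates 2 or 3 or mTEClo EEDcKO replicate 3 (0 called), Hoxc8 without mTEChi EEDcKO replicate 1 (1 called), Hoxc8 and Hoxc9 without mTEChi EEDcKO replicate 3 or mTEClo Ctrl replicate 1 (1 called), and Hoxc9 without mTEClo EEDcKO replicate 4 (2 called), at edgeR adjusted p from 0.052 to 0.15. Calls for the second ended for Hoxb9 and Hoxc10 without mTEChi AireEEDdKO replicates 1 or 2, mTEChi AireKO replicates 1, 2 or 3, mTEChi Ctrl replicates 1, 2, 3 or 4 or mTEChi EEDcKO replicate 2 (0 called), and Hoxc10 without mTEChi EEDcKO replicate 3 (1 called), at edgeR adjusted p from 0.052 to 0.15.

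In adult mTEChi, Hoxb9, Hoxb13 and Hoxc8 were lower in AireKO, and Hoxd4 was listed at 0 in all 4 AireKO libraries. With Hoxd4, 4 of 39 genes were called lower and 0 higher, and 3 without it, against 18.3% and 5.09% of all genes tested. Only 13 of the 39 were tested, so 4 of 39 does not show fewer calls than among all genes tested. Only Hoxc11 of the 39 genes had the higher mean in AireKO (34.72% of all genes), and the median log2 fold change without the filter was -1.51 (-0.906 with genes at 0 set at their bound; all genes -0.383). Hoxb9 was at 7.499 to 15.7 (median 11.7) CPM in the 7 WT libraries and 0.428, 1.58, 0.665 and 0.811 CPM in the 4 AireKO libraries, a log2 fold change of -3.70 ± 0.40 (adjusted p = 1.5e-08). Hoxb13 was at 1.88 to 9.93 (median 7.44) CPM in WT against 0.428, 0, 0 and 0 CPM in AireKO (78.5-fold, interval 13.9 to 3122, adjusted p = 4e-08). Hoxc8 was at 5.46 to 8.75 (median 7.78) CPM in WT against 4.28, 2.77, 3.33 and 1.62 CPM without Aire (-1.30 ± 0.39, adjusted p = 0.0057). No library overlapped for these 3 genes, which were picked by a call on the same values. Leaving out 1 library at a time gave 4 to 7 calls, with 7 without AireKO replicate 2, when Hoxa10, Hoxb4 and Hoxc4 were called lower too. Hoxc11 was at 12.4 to 25.9 (median 21.9) CPM with and 20.98, 30.02, 23.96 and 21.9 CPM without Aire (0.23 ± 0.20, adjusted p = 0.33), and Hoxc6 at 8.75 to 14.2 (median 10.5) CPM in WT and 11.1, 9.88, 9.65 and 10.9 CPM in AireKO (-0.12 ± 0.22, adjusted p = 0.67). Neither passed, and both overlapped.

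Hoxd4 was at 3.54 to 14.7 (median 7.78) CPM in WT mTEChi, and was listed at 0 in the 6 adult libraries that also list 0 mitochondrial counts, namely all 4 AireKO mTEChi libraries and AireKO mTEClo replicates 3 and 4. Of the 10 genes that had at least 2 CPM in each of the other 17 adult libraries and 0 in all 6, 9 were mitochondrial and the last was Med10, a Mediator subunit used by every cell, at 54.9 to 89.99 CPM in those 17. Genotype and this kind of library cannot be told apart in adult mTEChi, so no fold is given for Hoxd4 there. In neonatal AireKO mTEChi Hoxd4 was at 2.04, 7.51 and 4.48 CPM, against 1.67, 3.44, 3.82, 2.62 and 4.88 CPM in Ctrl (0.45 ± 0.48, adjusted p = 0.52). Thymocyte markers summed to 84.2 to 119 CPM in WT mTEChi and 42.6 to 56.1 CPM in AireKO, and mesenchyme markers to 219 to 387 and 190 to 208 CPM. Their part in the result was not tested. The AireKO mice were all male and aged 5 to 6 weeks, the WT mice 4 to 5 weeks. In adult mTEClo, Hoxd4 was again the single call, 1 of 39 lower and 0 higher, against 3.7% and 4.61% of all genes tested, at 0.624 to 2.14 (median 1.09) CPM in the WT group and 0, 0.622, 0 and 0 CPM in the AireKO group (adjusted p = 0.012). The call ended with the libraries without mitochondrial counts left out (adjusted p = 0.28, Hoxc8 called in its place), without AireKO replicate 3 (adjusted p = 0.05, Hoxb9 called in its place) and without AireKO replicate 4 (adjusted p = 0.058, 0 called). Without WT replicate 8, Hoxb9 was called as well as Hoxd4 (2 called). In that fraction 20 of the 39 genes had the higher mean in AireKO and 13 the lower, where 41.2% of all genes had the higher mean, with a median log2 fold change without the filter of 0.118 (all genes 0).

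In neonatal mTEChi, 13 Hox genes were lower in AireKO and none was called higher: 7 of the 10 Hoxb genes, 4 Hoxc genes, Hoxa7 and Hoxd8. The 13 of 39 called lower, and 0 higher, compare with 12.8% and 3.56% of all genes tested. Of the 39 genes, 37 had the lower mean in AireKO, and Hoxd3 and Hoxd4 had the higher mean (37.20% of all genes). The median log2 fold change without the filter was -2.38 (-1.19 with genes at 0 set at their bound; all genes -0.233). Scaling by library size alone moved the median of all genes by -0.208, and by -0.116 in the adult mTEChi comparison. Hoxb9 was at 11.7, 20.1, 19.9, 19.6 and 13.2 CPM in Ctrl and 0, 1.37 and 0.841 CPM in AireKO, a log2 fold change of -4.40 ± 0.62 (adjusted p = 3e-05). Hoxb13 was at 6.695, 6.301, 4.91, 5.499 and 12.3 CPM in Ctrl and at 0 in all 3 AireKO libraries, at least 15.5-fold lower with a floor of 3 counts over the group (adjusted p = 0.00017). Hoxc13 was at 2.23, 4.58, 2.46, 7.86 and 5.11 CPM in Ctrl and 0, 0 and 0.5604 CPM in AireKO (15.5-fold, interval 4.14 to 130.3, adjusted p = 0.0028). These 3 posterior genes did not overlap. Hoxb4 was at 5.02, 2.86, 2.73, 2.095 and 3.02 CPM in Ctrl and 0, 1.37 and 0.2802 CPM in AireKO (6.37-fold, interval 2.04 to 32.02, adjusted p = 0.0024), and Hoxb2 at 1.12, 1.15, 1.91, 2.62 and 1.39 CPM in Ctrl and 0, 0.683 and 0.2802 CPM in AireKO (5.73-fold, interval 1.44 to 49.7, adjusted p = 0.013). Hoxc8 was at 7.81, 5.16, 11.7, 9.95 and 7.2 CPM in Ctrl and 2.04, 4.78 and 2.52 CPM in AireKO (-1.50 ± 0.44, adjusted p = 0.014), and Hoxc9 at 2.79, 5.16, 4.91, 4.19 and 3.95 CPM in Ctrl and 0.679, 1.37 and 1.12 CPM in AireKO (-1.94 ± 0.52, adjusted p = 0.0082). All of these were also without overlap, as is likely for genes picked by a call on the same values.

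The other neonatal calls were Hoxd8 (14.8-fold, interval 2.497 to 603), Hoxb8 (8.49-fold, interval 2.201 to 72.5), Hoxb6 (7.85-fold, interval 2.02 to 67.2), Hoxb3 (7.64-fold, interval 1.21 to 318) and Hoxc10 (-1.61 on the log2 scale), of which Hoxb6 and Hoxb8 overlapped with Ctrl. Hoxa7 was at 0.558, 0.573, 0.546, 0.524 and 0.697 CPM in Ctrl and 0 in AireKO, at least 1.26-fold lower with the same floor (adjusted p = 0.043), and lost its call without each of the 8 libraries in turn. The anterior Hoxa genes that marked mTEClo were not called: Hoxa2 was at 2.23, 0.573, 5.73, 7.86 and 2.32 CPM in Ctrl and 0.679, 3.42 and 1.401 CPM in AireKO mTEChi, and Hoxa3 at 1.67, 0.573, 2.18, 6.02 and 2.79 CPM in Ctrl and 1.36, 1.37 and 1.96 CPM in AireKO. Hoxc11 was at 8.37, 6.87, 12, 8.38 and 8.83 CPM in Ctrl and 6.79, 5.46 and 2.802 CPM in AireKO (-0.95 ± 0.48, adjusted p = 0.14) and did not pass. Mesenchyme markers summed to 267 to 343 CPM in Ctrl and 250.5 to 355 CPM in AireKO, with 2 called higher and 4 lower. Of these markers, Col1a1 had 1329 reads in Ctrl and 3 in AireKO, and Col3a1 131 and 2. The sums thus hide changes of single markers and do not give numbers of cells. Thymocyte markers summed to 95.8 to 118 CPM in Ctrl and 55.04 to 88.8 CPM in AireKO, and endothelium markers to 42.4 to 66.8 and 38.9 to 40.1 CPM, neither sum with overlap. Their part in the result was not tested. The AireKO libraries came from days 4 to 6, and Ctrl mTEChi replicates 3, 4 and 5 from days 1 to 3. With age as a term 10 genes were called lower, and the calls of Hoxa7, Hoxb8 and Hoxd8 ended. A fit of only the groups compared called 7 genes lower. Fits without 1 of the libraries called 5 to 11 genes. Calls ended for Hoxa7, Hoxb2, Hoxb3, Hoxb8, Hoxc8 and Hoxd8 without mTEChi AireKO replicate 1 (7 called), Hoxa7, Hoxb3, Hoxb6, Hoxc10 and Hoxd8 without mTEChi AireKO replicate 2 (8 called), Hoxa7, Hoxb2, Hoxb3, Hoxb6, Hoxb8, Hoxc8, Hoxc10 and Hoxd8 without mTEChi AireKO replicate 3 (5 called), Hoxa7, Hoxb3 and Hoxb8 without mTEChi Ctrl replicate 1 (10 called), Hoxa7 and Hoxb8 without mTEChi Ctrl replicates 2 or 5 (11 called), Hoxa7, Hoxb6, Hoxb8, Hoxc10 and Hoxd8 without mTEChi Ctrl replicate 3 (8 called), and Hoxa7 and Hoxb3 without mTEChi Ctrl replicate 4 (11 called), at edgeR adjusted p from 0.05 to 0.24.

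**Figure D5:**
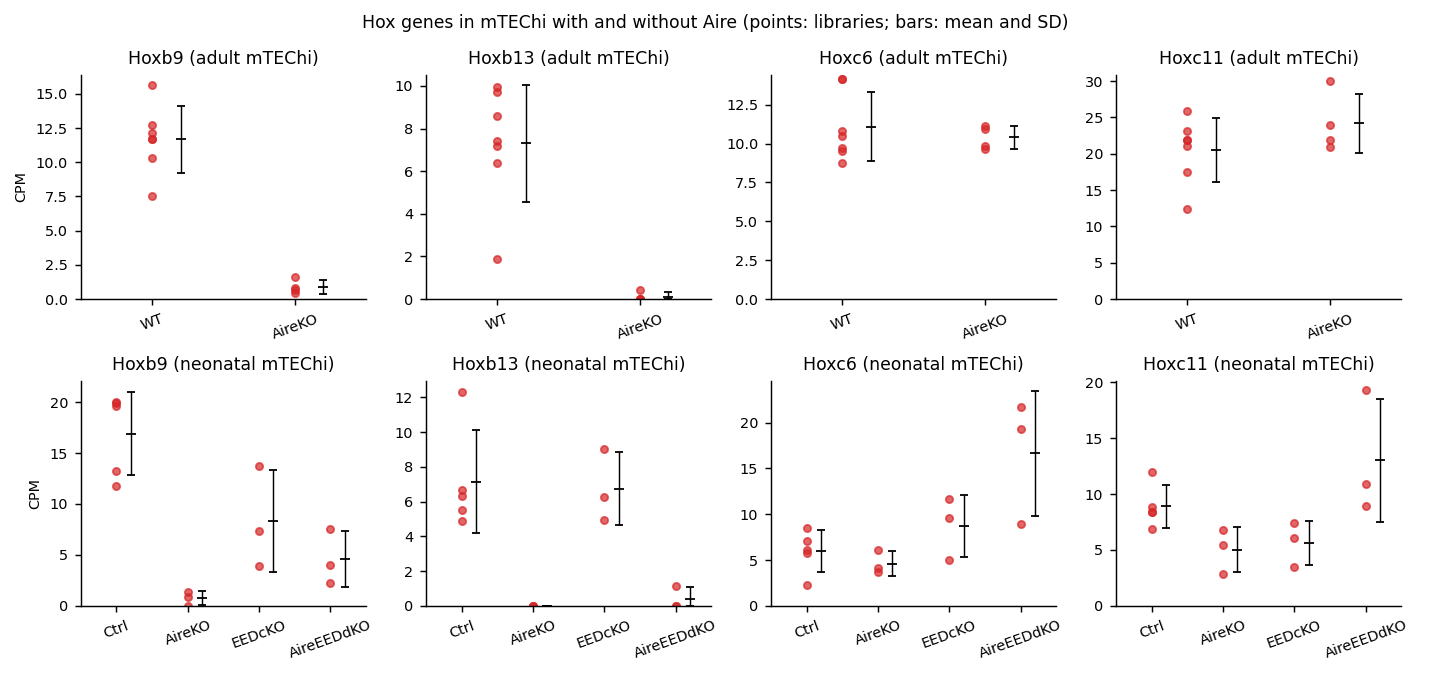
CPM of Hoxb9, Hoxb13, Hoxc6 and Hoxc11 in mTEChi libraries (points) with the group mean and SD (bars), in adult WT and AireKO (top) and in neonatal Ctrl, AireKO, EEDcKO and AireEEDdKO (bottom), each panel with its own axis. Hoxb9 is at 11.7 ± 2.46 and 0.871 ± 0.498 CPM in adult WT and AireKO and at 16.9 ± 4.09 and 0.736 ± 0.689 CPM in neonatal Ctrl and AireKO, whereas adult Hoxc6 and Hoxc11 overlap between WT and AireKO.

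The loss of Aire without EED was read from AireEEDdKO against EEDcKO mTEChi. Hoxa3, Hoxb3, Hoxb5, Hoxb6, Hoxb8, Hoxb13 and Hoxc13 were lower in AireEEDdKO. These 7 of 39 called lower, and 0 higher, compare with 8.36% and 4.99% of all genes tested. A fit of only the groups compared called 2, Hoxb6 and Hoxb13. Only 10 of the 39 had the higher mean in AireEEDdKO (38.68% of all genes), 6 of them in the Hoxc cluster and none in the Hoxb cluster. The median log2 fold change without the filter was -1.03 (all genes 0). This comparison shares the AireEEDdKO libraries with the comparison against AireKO. Hoxb6 was at 8.6, 6.94 and 12.5 CPM in EEDcKO and 1.17, 1.15 and 0.955 CPM in AireEEDdKO (-3.08 ± 0.67, adjusted p = 0.0024). Hoxb5 was at 3.07, 2.39 and 11.2 CPM in EEDcKO and 1.17, 0 and 0 CPM in AireEEDdKO (18.2-fold, interval 4.78 to 154, adjusted p = 0.0056), and Hoxb3 at 4.92, 2.39 and 1.56 CPM in EEDcKO and 0.584, 0 and 0 CPM in AireEEDdKO (16.8-fold, interval 2.73 to 689.8, adjusted p = 0.0038). None of these neighbours overlapped, which is likely after a call on the same values. Hoxb8, a gene of myeloid progenitors, was at 2.46, 0.651 and 9.67 CPM in EEDcKO and 0, 0.573 and 0 CPM in AireEEDdKO (26.6-fold, interval 4.49 to 1076, adjusted p = 0.0081). Hoxb13 was at 4.92, 6.29 and 9.04 CPM in EEDcKO and 1.17, 0 and 0 CPM in AireEEDdKO (23.1-fold, interval 6.14 to 194, adjusted p = 0.0015). Hoxc13 was at 9.21, 5.64 and 3.12 CPM in EEDcKO and at 0 in all 3 AireEEDdKO libraries, at least 13.2-fold lower (adjusted p = 0.0006). Hoxb13 and Hoxc13 thus had at most 2 reads in AireEEDdKO mTEChi, whereas Hoxc4, Hoxc5 and Hoxc6 there were at 15.3 ± 3.54, 17.6 ± 8.41 and 16.6 ± 6.82 CPM. Hoxa3 was at 3.07, 15.4 and 9.67 CPM in EEDcKO and 2.33, 2.87 and 4.77 CPM in AireEEDdKO (-1.52 ± 0.50, adjusted p = 0.03), with overlap. Leaving out 1 library at a time gave 4 to 8 calls. Calls ended for Hoxa3 without mTEChi AireEEDdKO replicates 1 or 2 (6 called), Hoxa3 without mTEChi EEDcKO replicate 2 (7 called), and Hoxa3, Hoxb5 and Hoxb8 without mTEChi EEDcKO replicate 3 (4 called), at edgeR adjusted p from 0.055 to 0.21. Without AireEEDdKO replicate 3, Hoxc10 was called higher beside 7 lower genes. Scaling by library size alone moved the median of all genes by -0.132.

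Across these comparisons 24 of the 39 genes were called at least once between pairs of groups. The share of all genes called at least once was not worked out, so this count stands alone. The other 15 (Hoxa4, Hoxa5, Hoxa6, Hoxa11, Hoxa13, Hoxb1, Hoxb7, Hoxc12, Hoxd1, Hoxd3, Hoxd9, Hoxd10, Hoxd11, Hoxd12 and Hoxd13) were called in none. Only Hoxa4 among them was tested, in neonates, and the other 14 were below the filter at both ages. Hoxd genes made up 7 of these 15, and no group mean of the 15 was above 3.63 CPM (Hoxa4 in EEDcKO mTEClo). Hoxa5, a gene of the lung and trachea, was at 1.12, 2.29, 0.818, 1.05 and 0 CPM in neonatal Ctrl mTEChi and 1.23, 1.52 and 2.81 CPM in EEDcKO mTEChi. Hoxb7 was at 0.558, 1.15, 1.09, 1.31 and 1.16 CPM in Ctrl and 1.84, 0.868 and 0.312 CPM in EEDcKO mTEChi, and Hoxd9 at 0, 0, 3.001, 0.262 and 0.697 CPM in Ctrl and 1.84, 0.651 and 0.936 CPM in EEDcKO. The most posterior Hoxd gene, Hoxd13 of the digits, was at 2.23, 1.72, 0.273, 2.36 and 0 CPM in Ctrl and 4.92, 1.74 and 0.312 CPM in EEDcKO. Without the filter, 12 of these 15 were called in adult maturation, a fit for which the share of all genes called was not worked out.

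Genes that work with or around the Hox clusters were followed in lists. Among the 9 TALE cofactors, homeodomain partners of Hox proteins (Pbx, Meis and Pknox), Meis3 rose without EED in mTEClo, from 9.38 ± 1.01 CPM in Ctrl to 24.7 ± 5.95 in EEDcKO and 32.3 ± 5.79 in AireEEDdKO (1.39 ± 0.25, adjusted p = 0.00025, and 1.77 ± 0.26, adjusted p = 2e-05), 1 of 9 called in each (of all genes tested, 9.51% and 12.4% were called higher), and none was called in mTEChi without EED. Meis1 was lower in mTEChi than in mTEClo in both ages (-1.81 ± 0.08 adult and -1.60 ± 0.18 neonatal). Pbx4 was higher in mTEChi (1.37 ± 0.31 and 1.82 ± 0.58) and lower in AireKO mTEChi (-2.68 ± 0.48 in adults, and 10.3-fold, interval 3.397 to 51.2 in neonates). Of 12 regulators of Hox genes, 11 were tested. Rarg, a retinoic acid receptor, was higher in all 4 comparisons without EED: 1.38 ± 0.23 in EEDcKO mTEClo, 1.71 ± 0.24 in AireEEDdKO mTEClo, 1.76 ± 0.23 in EEDcKO mTEChi and 1.44 ± 0.29 in AireEEDdKO against AireKO mTEChi. Egr2 (1.39 and 1.44) and Kdm6b, an H3K27 demethylase (1.07 and 1.42), were higher in both mTEClo comparisons without EED. Rara was called in AireEEDdKO mTEClo (1.12), and Cdx1 was lower in EEDcKO mTEClo (-1.29). Cdx2, an activator of posterior Hox genes in the embryo, was at 3.001 to 6.695 (median 4.88) CPM in neonatal Ctrl mTEChi and 0 to 0.679 (median 0) CPM in AireKO (28.01-fold, interval 4.86 to 1123, adjusted p = 0.0079). It was listed at 0 in the 4 adult AireKO mTEChi libraries, among the libraries without mitochondrial counts, and at 0 in all 3 AireEEDdKO mTEChi libraries.

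With maturation, 2 of the 12 regulators were higher and 3 lower in adult mTEChi, where 23.8% and 12.3% of all genes tested were (Cdx1 2.51 and Cdx2 1.66, against Egr2 -1.45, Rarb -1.98 and Rarg -1.35), and Cdx2 was higher (2.09) and Rarg lower (-1.46) in neonatal mTEChi. In adult AireKO mTEClo, Cdx1 (1.12) was among the regulators called higher, where myeloid markers summed to 37.9 to 66.8 CPM with and 106 to 143 CPM without Aire. Of 15 ParaHox and extended Hox relatives, 8 were tested in neonates and 4 in adults. En2 rose in EEDcKO mTEChi, from 0.524 to 4.46 (median 1.39) CPM to 4.99 to 31.2 (median 15.4) CPM (3.51 ± 0.68, adjusted p = 0.0006), and Gbx2 with it (1.04). En2 (19.6-fold, interval 5.22 to 166) and Gbx2 (1.51) also rose in AireEEDdKO mTEClo, and Meox1 in EEDcKO mTEClo (1.24). Without Aire, Cdx2, En1 (-2.49) and Meox1 (-1.45) were lower in neonatal mTEChi, and En1 (-1.65), En2 (-3.75) and Cdx2 in AireEEDdKO against EEDcKO. En1 (11.2-fold, interval 3.65 to 55.4) and Gbx2 (1.45) were higher in neonatal mTEChi than in mTEClo, as was Gbx1 in adults (1.61), which was also higher in adult AireKO mTEClo (1.02). In the 8-gene network of the pharyngeal pouches, Tbx1 rose in EEDcKO mTEChi (1.84 ± 0.42) and mTEClo (1.86 ± 0.50) and was lower in AireEEDdKO against EEDcKO (-1.42) and in adult AireKO mTEChi (-1.12). Adult mTEChi had higher Tbx1 (2.25) and Foxn1 (1.38) and lower Eya1 (-2.21), and neonatal mTEChi had lower Pax1 (-1.62). The EED effect on Foxn1 was higher in mTEChi than in mTEClo (1.17). Gcm2, the parathyroid regulator, was at 1.74 to 11.1 (median 5.93) CPM in EEDcKO mTEChi and 0 in AireEEDdKO, and at 0.67 to 3.83 (median 3.35) CPM in Ctrl mTEClo and 0 in AireEEDdKO mTEClo, lower in both.

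Inside the clusters lie 43 annotated noncoding genes, of which 5 passed the filter in neonates and 3 in adults. Gm53, a noncoding gene between Hoxb9 and Hoxb13 that shares no exon bases with them, was at 0 to 2.68 (median 0.348) CPM in neonatal Ctrl mTEClo and 7.19 to 17.5 (median 7.94) CPM in EEDcKO (3.11 ± 0.59, adjusted p = 0.00036), and at 6.72 to 12.6 (median 7.196) CPM in AireEEDdKO (2.91 ± 0.61, adjusted p = 0.00068). In neonatal mTEChi it was at 3.35 to 7.897 (median 5.73) CPM in Ctrl, 0 to 0.679 (median 0) CPM in AireKO (37.4-fold, interval 6.53 to 1492, adjusted p = 0.00059) and 1.75 to 2.87 (median 2.23) CPM in AireEEDdKO (14.8-fold, interval 2.27 to 622, adjusted p = 0.035). In adult mTEChi it was at 3.12 to 15.6 (median 6.69) CPM with Aire and 0 to 0.428 (median 0) CPM without (81.3-fold, interval 14.4 to 3231, adjusted p = 1.7e-07). Gm53 was higher without EED in mTEClo and lower without Aire in mTEChi of both ages, as its neighbour Hoxb9 was in mTEChi. It was also higher in mTEChi than in mTEClo (3.24 adult and 2.24 neonatal) and lower in adult AireKO mTEClo, at 0 in all 4 libraries. Its EED effect was lower in mTEChi than in mTEClo (-3.18 ± 0.76, adjusted p = 0.028). Hotair, the noncoding gene beside Hoxc11, was at 0 to 0.781 (median 0.276) CPM in adult mTEClo and 2.83 to 12.5 (median 9.57) CPM in mTEChi (4.44 ± 0.38, adjusted p = 2.7e-11), and was higher in neonatal mTEChi too (2.54). Hoxaas2, antisense beside Hoxa3, was at 4.99 to 9.36 (median 7.66) CPM in adult mTEClo and 0 to 1.796 (median 0.637) CPM in mTEChi (-3.26 ± 0.33, adjusted p = 6.3e-10). In neonates Hoxaas2 (-2.34), Hotairm1 (-2.02) and Hoxaas3 (-1.59) were lower in mTEChi. Reads counted without strand cannot separate these antisense genes from the Hoxa genes where they overlap.

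The 5 nearest other protein-coding genes on each side of each cluster, 40 in all, were followed as well, and 37 were tested in neonates and 36 in adults. In EEDcKO mTEClo, 2 of the 40 were called higher and 1 lower, against 9.51% and 6.22% of all genes tested. Creb5, beyond the Hoxa cluster, was at 21.8 to 35.5 (median 31.8) CPM in Ctrl and 75.3 to 139 (median 98.4) CPM in EEDcKO (1.79 ± 0.45, adjusted p = 0.0038), and Skap2, beside the Hoxa cluster, at 36.3 to 39.5 (median 39.3) CPM in Ctrl and 58.8 to 91.1 (median 82.7) CPM in EEDcKO (1.04 ± 0.18, adjusted p = 0.00018). Ttll6, next to the Hoxb cluster, was lower there (-1.62 ± 0.48) and in AireEEDdKO mTEClo (-3.00 ± 0.59), where Creb5 was higher (1.28). In EEDcKO mTEChi only Hnrnpa1 was called, lower (-1.02), 1 of 40 against 5.4% of all genes tested. In AireEEDdKO against AireKO mTEChi, Calcoco1 (1.35), Copz2 (1.45) and Skap2 (1.04) were higher and Cbx5 (-1.06), Snx10 (-1.17) and Snx11 (-1.12) lower, 3 of 40 each way against 6.69% and 2.78% of all genes tested. In neonatal AireKO mTEChi, 3 of the 40 were lower and 0 higher, against 12.8% and 3.56% of all genes tested: Calcoco2 (-3.15), Creb5 (-2.10) and Ttll6 (-1.44). Calcoco2 (31.4-fold, interval 5.36 to 1269) and Ttll6 (-1.79) were also lower in AireEEDdKO against EEDcKO. In adult AireKO mTEChi Creb5 (-3.71) and Ttll6 (-1.84) were lower, Calcoco2 was listed at 0, and Copz2 was higher (1.05). In AireKO mTEClo Nfe2 was higher (2.22) and Ttll6 lower (-2.37). With maturation 4 flanking genes were higher in adult mTEChi, of 40 and against 23.8% of all genes tested (Calcoco2 4.63, Ttll6 2.81, Skap1 2.14 and Nfe2 1.94) and 4 lower, against 12.3% (Copz2 -2.10, Calcoco1 -1.49, Skap2 -1.29 and Smug1 -1.23). In neonates, where 13.8% and 6.92% of all genes tested were called higher and lower, 2 were higher (Calcoco2 1.97 and Ttll6 1.58) and 2 lower (Calcoco1 -1.86 and Copz2 -1.80). The EED effect on Calcoco1 was higher in mTEChi than in mTEClo (1.09). None of the genes flanking the Hoxd cluster was called in any comparison.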

How the data were processed

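Bulk RNA-seq of 47 mTEC libraries was used, 23 adult and 24 neonatal. The deposited values are raw read counts per gene, made by the authors with fastp 0.20.0, STAR 2.7.3a on mm10, SAMtools 1.9, Picard 2.21.1 (duplicates removed) and unstranded htseq-count 0.11.2, per the labels and the study's methods. Removal of duplicates and of multi-mapping or low-quality alignments can lower the counts of highly expressed and of near-identical genes. Unstranded counting cannot tell overlapping genes apart on the bases they share, which may lower their counts. The adult and the neonatal table were fitted apart, so levels were not tested between ages.

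In R 4.3.3, edgeR 4.0.16 was run with filterByExpr by group (19310 adult and 20196 neonatal genes kept), TMM factors (0.9236 to 1.0434 and 0.8708 to 1.0723) and a quasi-likelihood F-test of each of 12 contrasts over all libraries of a table, with Benjamini-Hochberg adjustment over all tested genes. Genes were called at an adjusted p under 0.05 if the change was also at least 2-fold. Counts of calls are over all 39 Hox genes, whereas shares of all genes are over the genes tested. Values in every library are plotted, and printed for the genes the comparisons turn on, and genes of the other lists are named where they passed the call. The results of some genes are not reported here. The Hox genes and the lists were chosen with earlier results of these data known. Gene positions come from GENCODE vM21 (GRCm38) and promoter letters from RefSeq (GRCm38.p6). One read was worth 0.2453 to 0.6249 CPM in adult and 0.2036 to 0.683 CPM in neonatal libraries.

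The alternatives tried were DESeq2 1.42.0, scaling by RLE factors or by library size, no low-count filter, no minimum change, a fit of the groups compared alone, male libraries only, age as a term, the replicate number as a block, each library left out, the libraries with mitochondrial counts only and, added after seeing the data, the cTEC marker level as a term. The labels share replicate numbers between groups. Deviations from the group means correlated above 0.1 in all pairs only for AireKO and AireEEDdKO mTEChi (r = 0.1225, 0.1561 and 0.2261 across genes), which also matched in age, so only these numbers were taken as pairs. Only libraries of the same number were compared. Ctrl mTEClo replicates 1, 2 and 3 match Ctrl mTEChi replicates 3, 4 and 5 in age and sex. EEDcKO mTEClo replicates 1, 2 and 3 likewise match EEDcKO mTEChi replicates 2, 3 and 1. Pairing across these numbers was not tested, and the replicate block joins libraries of different ages under 1 number. It was fitted over all libraries of a table, so the AireKO and AireEEDdKO pairs were not modelled alone. The reported tests did not use pairs. The fit was tested on simulated counts first. Protein sequences were not used here.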

Additional observations from a re-analysis of the deposited data

Results flagged for a closer look

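Sums of a cluster, and single Hox genes with a group mean of at least 5 CPM, were examined for 1 library standing apart from the rest in 61 groups of libraries. Chance flags about 1 in 20 such groups, and 4 stood apart. The Hoxb sum of EEDcKO mTEClo was 38.84 CPM in replicate 2 and 26.05 to 27.71 CPM in the other libraries. In Ctrl mTEChi, the Hoxb sum was 33.47 CPM in replicate 1 and 39.53 to 40.85 CPM in the others, and the Hoxd sum was 17.19 CPM in replicate 3 and 9.484 to 10.68 CPM in the others. Hoxb13, a posterior gene, was at 12.31 CPM in replicate 5 of Ctrl mTEChi and 4.91 to 6.695 CPM in the other 4 libraries.

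The EED effect differed between groups for 4 genes by the edgeR interaction test. Hoxc8 (-2.47) and Hoxc9 (-2.55) had a lower effect in mTEChi than in mTEClo, and Hoxb9 (3.48) and Hoxc10 (2.97) a higher effect without Aire than with it, all as differences of log2 fold changes. None of the 4 calls was left with the replicate number as a block, which joined libraries of different ages.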

How the results depend on the processing

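Counts are Hox genes called of 39, with the reported count in parentheses, and the cause of a change was not tested unless named. Leaving out 1 library at a time gave 9 to 14 for EEDcKO against Ctrl mTEClo (15), 7 to 11 for AireEEDdKO against Ctrl mTEClo (12), 5 to 7 for EEDcKO against Ctrl mTEChi (7), 2 to 8 for AireEEDdKO against AireKO (6), 4 to 8 for AireEEDdKO against EEDcKO (7), 5 to 11 for neonatal AireKO against Ctrl (13), 9 to 18 for neonatal maturation (18), 12 to 13 for adult maturation (13), 4 to 7 for adult mTEChi AireKO (4), 0 to 2 for adult mTEClo AireKO (1) and 0 to 2 for each interaction (2).
A fit of the compared groups alone gave 4 for AireEEDdKO against Ctrl mTEClo, 7 for neonatal AireKO, 2 for AireEEDdKO against EEDcKO, 8 for adult maturation, 0 for adult mTEClo AireKO and 1 for the interaction with fraction.
The cTEC marker level as a term, chosen after seeing the data, left 6 for EEDcKO and 2 for AireEEDdKO mTEClo, 0 for neonatal maturation, where Hoxa9 went from 2.18 to -0.0104 on the log2 scale (adjusted p = 1), and 0 for the interaction with fraction. Every Ctrl mTEClo library, at 1616 CPM or more, was above every other neonatal library, at 752 CPM or less. The term is thus poorly separated from that group, and calls lost with it do not show the part of cTECs.
Without the low-count filter, which tests more genes, 32 were called in adult maturation, 12 in adult mTEChi AireKO, 2 in adult mTEClo AireKO and 1 for the interaction with fraction. That interaction had 1 call in DESeq2 and 1 with age as a term. Shares of all genes called were worked out only with the filter, so the counts without it stand alone.
With the replicate number as a block over all libraries of a table, both interactions had 0 calls, adult mTEClo AireKO 2 and AireEEDdKO against AireKO 6. The other counts were within 1.5 times the reported ones. The AireKO and AireEEDdKO pairs alone were not modelled. The numbers of the other groups are not known to pair samples, and those of the Ctrl and EEDcKO fractions join libraries of different ages.

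Over the 100 changes of Hox genes called, 44 alternative fits left the gene untested, and of the 1572 values that others gave 1299 kept direction and side of the threshold, 272 kept direction only and 1 reversed. In every leave-one-out fit 51 of the 100 were tested and called, and 24 in every fit.

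Depth of 1578579 to 4817418 reads left 26 Hox genes of adults and 14 of neonates untested. Ctrl mTEClo mice were younger than the AireEEDdKO mice and than those of EEDcKO mTEClo replicates 3 and 4. The adult AireKO mTEChi libraries, all without mitochondrial counts, cannot be told apart from their genotype.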
